A study of Mus musculus with 6 samples.

Results

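The genes described here are 38 mouse genes of the DNA damage checkpoint and of DNA repair by homologous recombination, among them the genes of the Fanconi anaemia pathway. They were chosen by name and known role, with earlier results of these data known. Each was read at 1 probe set, the brightest of those that carry its symbol alone. Of the 38 genes, 37 had such a probe set among 18193 genes on the array. Xrcc2 was not analysed here. After a filter on dim probe sets, 35 of the 37 were tested, beside 13223 genes in all. Bard1, the partner of Brca1, and Rad54b, a DNA translocase, were the genes below the filter.

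Total RNA of cultured dermal fibroblasts was measured on 6 Affymetrix mouse 430 2.0 arrays, 2 for each of 3 groups. The GFP-positive and the GFP-negative cells had been exposed to 5-aza-2'-deoxycytidine (5A2dC) at 4 μM for 48 hours, grown for 24 hours in normal medium and then separated by flow sorting on GFP. Control cells were untreated over the same times and were not sorted a further time. The description of the treated samples reads as untreated with the drug, but their protocol and characteristics give it, and they were taken as treated. Cells of all 3 groups came from skin of newborn mice 0 to 2 days old, were at passage 4 and had first been sorted for cells without GFP. The cells were described as carrying a GFP transgene on the X chromosome, under a chicken β-actin promoter with the CMV enhancer, in heterozygous females from transgenic 129/ICR males and BL6 mothers. The strain was labelled B6, and control replicate 2 was labelled as of mixed sex where the other 5 samples were labelled female. The drug and the further sort both set treated cells apart from control cells and cannot be told apart. The replicates were called biological, but no culture or animal was given, so the p-values cover only sample-to-sample spread, which may be technical.

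5A2dC is a cytidine analog that is built into DNA during replication, where it traps DNA methyltransferases in covalent adducts. Such adducts block replication forks. The checkpoint kinases Atr and Atm, with the adaptors that feed them, signal stalled forks and breaks. The Fanconi proteins form a ubiquitin ligase complex that marks Fancd2 and Fanci at blocked forks. Brca1, Palb2, Brca2 and their cofactors then repair broken forks by copying the sister chromatid, and nucleases and helicases resect and resolve the intermediates. Many of these genes are transcribed mainly in S and G2 phase, so their RNA is known to vary with the share of cycling cells.

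The deposited MAS5 signals were brought to a 2% trimmed mean of 500 on each array. GFP-positive replicate 2 and GFP-negative replicate 2 had been deposited at a lower scale and were multiplied by 9.90 and 8.06. The arrays formed 2 sets by replicate number, with a scaled lower quartile of 38.7 to 42.6 for replicate 1 and of 19.2 to 22.6 for replicate 2. Each difference is therefore given also within replicate 1 and within replicate 2, and limma was run without and with the replicate number as a block. All differences below are log2 differences of scaled signal plus an offset of 30.64, which lessens the differences of dim genes. The summed signal of the 10 dermal fibroblast markers was 157088 to 160720 in GFP-positive cells and 154341 to 168788 in GFP-negative cells, against 190137 to 199811 in control cells. In bulk RNA, fewer cells with a transcript and less of it per cell cannot be told apart.

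The upstream sequence of 3 genes is shown because they had the highest and lowest values of the group: Ube2t and Clspn, the members that passed a test, and Fancf, the member below control by the most. RefSeq promoter windows of 300 bases (250 before the start of the gene to 50 after it, build GRCm38.p6) were matched for 31 of the 37 genes, in 33 windows. The 250 bases before the start are printed 5′ to 3′ on the strand of the gene, with CG dinucleotides, the sites at which DNA methyltransferases act, in capitals. The Ube2t stretch lies at chr1:134962315-134962564 on the plus strand, Clspn at chr4:126556730-126556979 on the plus strand and Fancf at chr7:51862268-51862517 on the minus strand.
Ube2t: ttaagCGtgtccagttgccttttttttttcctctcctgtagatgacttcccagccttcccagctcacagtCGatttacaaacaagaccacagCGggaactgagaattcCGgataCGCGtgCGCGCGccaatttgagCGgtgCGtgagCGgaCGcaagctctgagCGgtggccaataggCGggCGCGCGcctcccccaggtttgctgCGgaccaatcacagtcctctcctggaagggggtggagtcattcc
Clspn: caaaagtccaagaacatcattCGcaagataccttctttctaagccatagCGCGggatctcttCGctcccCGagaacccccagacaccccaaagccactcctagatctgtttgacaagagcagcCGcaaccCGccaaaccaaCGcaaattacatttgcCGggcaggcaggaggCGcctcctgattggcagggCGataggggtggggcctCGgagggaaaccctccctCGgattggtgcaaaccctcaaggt
Fancf: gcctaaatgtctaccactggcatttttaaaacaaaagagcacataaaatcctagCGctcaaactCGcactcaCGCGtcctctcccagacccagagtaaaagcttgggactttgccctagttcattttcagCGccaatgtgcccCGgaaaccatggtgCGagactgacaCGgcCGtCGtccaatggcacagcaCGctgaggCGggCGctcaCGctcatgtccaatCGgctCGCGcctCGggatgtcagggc
These stretches hold 19 CG in Ube2t, 13 in Clspn and 18 in Fancf. Over the 33 windows of these genes the median number of CG was 23 (3 to 38), against a median of 7 in all 32851 windows of the table. DNA methylation was not measured in these files. The words TTTCGCGC, TTTGGCGC, TTTCCCGC and TTTGCCGC, which fit the binding motif of E2F factors, were searched on both strands, and a window was counted once however many words it held. At least 1 of them occurred in 8 of the 33 windows (24.2%), in Bard1, Brca2, Chek2, Clspn, Fancg, Rad51c and Topbp1, against 2.26% of all windows. Each of these words holds CG, and the windows compared were not matched for their number of CG. The word CCAAT, searched likewise, occurred in 54.5% against 37.4%, and TTTGAA, the cell cycle homology region word, in 6.06% against 17.9%. The Clspn E2F word begins 22 bases after the start, outside the stretch printed, and the printed Ube2t and Fancf stretches hold CCAAT 3 times each. These are matches of letters, not measured sites.

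In GFP-positive cells, 0 of the 35 genes differed from control cells at an adjusted p under 0.05 (limma, Benjamini-Hochberg over 27022 probe sets, of which 0.122% were called). The smallest adjusted p was 0.3831, for Ube2t, and at an unadjusted p under 0.05 there were 2 genes higher and 0 lower, where 3.6% of all probe sets were higher and 3.43% lower (7.04% in all). With the replicate number as a block, 6.21% of all probe sets passed (3.15% as higher and 3.06% as lower), and Ube2t alone of the 35 genes passed. In that fit 5 genes were higher and 1 lower at an unadjusted p under 0.05, against 20.3% of all probe sets. The values leaned upward: 15 of the 35 genes (42.9%) were higher than control within both replicate numbers, where 34.6% of all probe sets were, and 5 were lower, where 28.5% were. The median difference of the 35 genes was 0.18 (0.28 within replicate 1 and 0.25 within replicate 2), and that of all genes tested was 0.04. Without GFP-positive replicate 2 the median was 0.30. Beyond 0.5 within both replicate numbers, 3 genes (8.57%) were higher, against 6.85% of all probe sets, a share close to the background, and 0 were lower, against 5.78%. Both arrays lay above both control arrays for 12 genes (34.3%, against 17.3% of all probe sets) and below them for 2 (against 14.9%). At 1 probe set per gene, 4792 of the 13223 genes tested (36.2%) were higher within both replicate numbers and 3855 were lower. By that reading 993 (7.51%) were higher beyond 0.5 within both and 760 lower. Both arrays lay above control for 2520 of them (19.1%) and below for 2073.

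GFP-negative cells shared their control arrays with that comparison, so the 2 sets of values are not independent. Of the 35 genes, 0 passed without a block, where 0.0296% of all probe sets did, and the smallest adjusted p was 0.6229, for Clspn (limma). At an unadjusted p under 0.05 there were 2 genes higher and 0 lower, where 2.76% of all probe sets were higher and 2.31% lower (5.07% in all). With the block, 3.57% of all probe sets passed (1.9% as higher and 1.68% as lower) and Clspn alone of the 35 genes passed. In that fit 6 genes were higher and 1 lower at an unadjusted p under 0.05, against 16.2% of all probe sets. Within both replicate numbers 15 genes were higher, where 33.8% of all probe sets were, and 3 were lower, where 26.8% were. The median difference was 0.15 (0.26 within replicate 1 and 0.08 within replicate 2), and that of all genes tested was 0.04. The median was 0.023 with GFP-negative replicate 1 left out and 0.33 with replicate 2 left out. Beyond 0.5 within both, 4 genes were higher (11.4%, against 6.38% of all probe sets) and 1 was lower (against 4.35%). Both arrays lay above both control arrays for 11 genes (31.4%, against 15.1% of all probe sets) and below them for 2 (against 13.5%). At 1 probe set per gene, 4641 of the 13223 genes tested (35.1%) were higher within both replicate numbers and 3643 were lower. By that reading 900 (6.81%) were higher beyond 0.5 within both and 595 lower. Both arrays lay above control for 2150 of them (16.3%) and below for 1859.

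**Figure D1:**
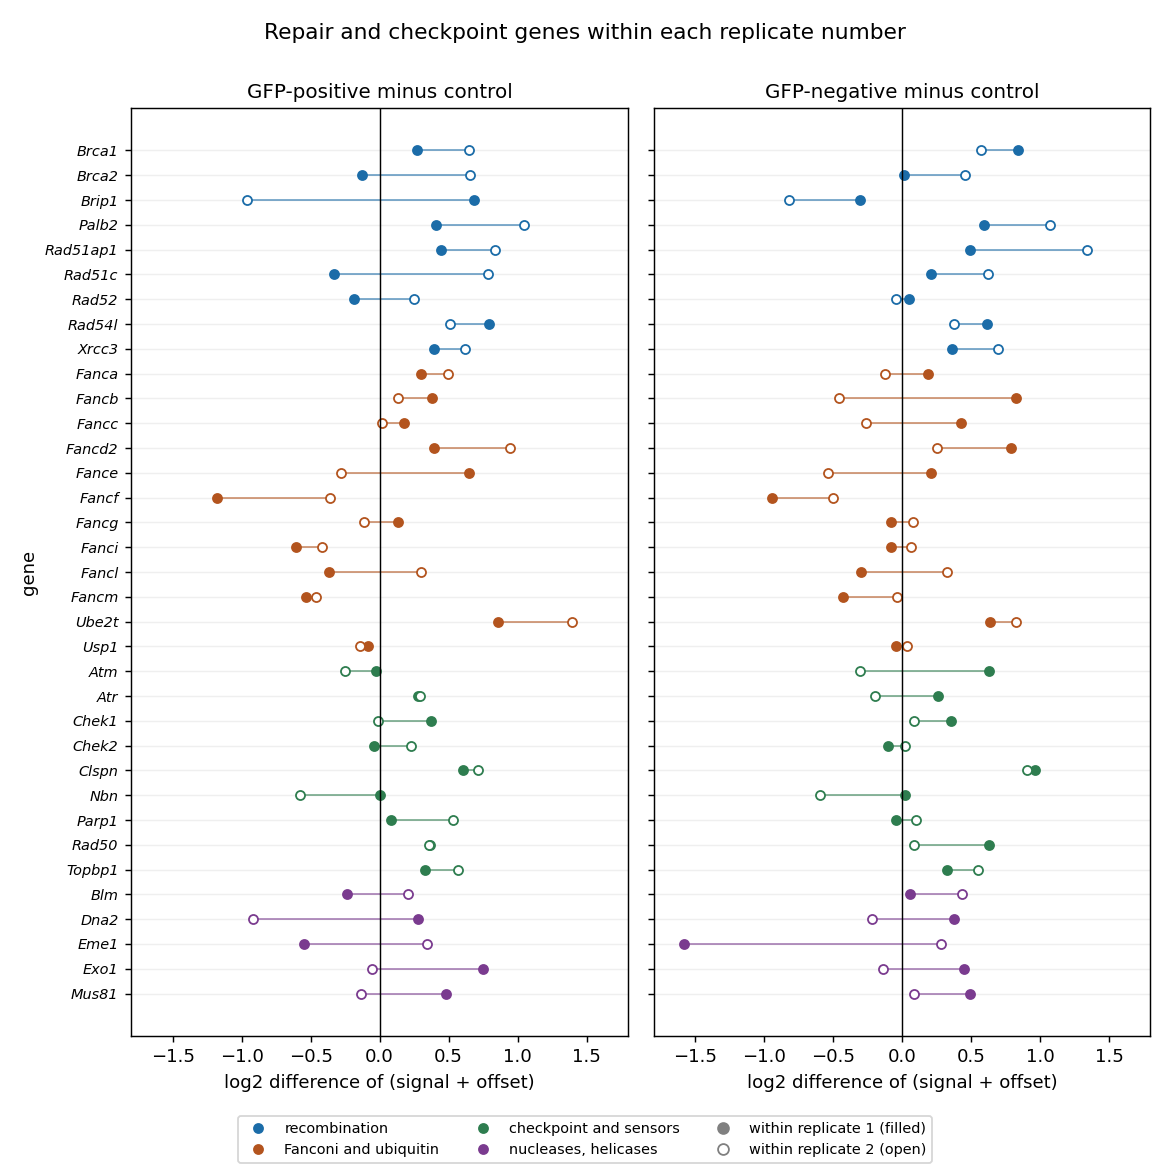
Log2 differences from control of the 35 tested genes, GFP-positive cells on the left and GFP-negative cells on the right, with filled points for replicate 1, open points for replicate 2 and colours for the roles of the genes. Ube2t and Clspn lie to the right of 0.5 within both replicate numbers in both panels, Fancf lies left of 0 in both, and 15 genes of the left panel and 17 of the right have points on opposite sides of 0.

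The recombination mediators and strand exchange factors, 9 of them tested, had a median difference of 0.46 in GFP-positive cells (0.39 and 0.65 within the replicates) and 0.49 in GFP-negative cells (0.36 and 0.57). Of the 9 genes, 0 passed the limma test with or without the block in either comparison. At an unadjusted p under 0.05 there were 0 without the block, and with it 2 were higher in GFP-positive cells and 3 in GFP-negative cells, where 20.3% and 16.2% of all probe sets passed in either direction. In GFP-positive cells 8 of the 9 mean differences were above 0 and 5 genes were higher within both replicate numbers, where 34.6% of all probe sets were. In GFP-negative cells 8 of the 9 were above 0, 7 were higher within both, where 33.8% of all probe sets were, and 1, Brip1, was lower within both. Of the 13223 genes tested, 7191 had a mean difference above 0 in GFP-positive cells and 7200 in GFP-negative cells.

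Palb2 links Brca1 to Brca2 at broken DNA. Its signal was 174.7 and 181.1 in GFP-positive cells (replicates 1 and 2) and 203.1 and 184.6 in GFP-negative cells, against 123.9 and 71.9 in control cells. The 4 treated arrays lay above both control arrays, and control replicate 2 was the lowest. The difference was 0.73 ± 0.42 (SE) in GFP-positive cells (0.41 and 1.05 within the replicates) and 0.83 ± 0.42 in GFP-negative cells (0.60 and 1.07), with limma adjusted p of 0.863 and 0.9998, and of 0.2546 and 0.2479 with the block. Without control replicate 2 the differences were 0.43 and 0.54 in the same order. Rad51ap1, a cofactor of strand pairing, had signals of 373.6 and 251.3 in GFP-positive cells and 386.9 and 367.6 in GFP-negative cells, against 266.7 and 127.0 in control cells. GFP-positive replicate 2 fell between the control arrays, whereas the GFP-negative arrays lay above both. Its differences were 0.64 ± 0.40 (0.44 and 0.84) in GFP-positive cells and 0.91 ± 0.40 (0.49 and 1.34) in GFP-negative cells, with limma adjusted p of 0.9136 and 0.9917, and of 0.215 and 0.1097 with the block. They were 0.18 and 0.46 without control replicate 2 and 1.10 and 1.37 without control replicate 1, and the GFP-positive value was 0.38 without GFP-positive replicate 1.

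Rad54l encodes a motor protein that drives strand exchange. It had signals of 334.1 and 337.4 in GFP-positive cells and 291.5 and 304.7 in GFP-negative cells, against 179.9 and 228.2 in control cells. Both treated groups lay above control without overlap, and the replicates of each treated group were close together. The differences were 0.65 ± 0.31 (0.79 and 0.51) in GFP-positive cells and 0.49 ± 0.31 (0.61 and 0.37) in GFP-negative cells, with limma adjusted p of 0.7652 and 0.9998, and of 0.1647 and 0.37 with the block. Brca1, a ubiquitin ligase that promotes resection of broken ends, had signals of 197.2 and 270.1 in GFP-positive cells and 307.9 and 254.8 in GFP-negative cells, against 158.5 and 161.7 in control cells. The control arrays were close together and below all 4 treated arrays. The differences were 0.46 ± 0.35 (0.27 and 0.65) in GFP-positive cells and 0.70 ± 0.35 (0.84 and 0.57) in GFP-negative cells, with limma adjusted p of 0.9647 and 0.9998, and of 0.418 and 0.2521 with the block.

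Xrcc3, a strand exchange factor, had differences of 0.39 and 0.62 within the replicates in GFP-positive cells and 0.36 and 0.69 in GFP-negative cells. Brca2, a mediator of strand exchange, had -0.13 and 0.66 in GFP-positive cells and 0.01 and 0.45 in GFP-negative cells. Rad51c, which acts with Xrcc3, had -0.33 and 0.79 in GFP-positive cells and 0.21 and 0.62 in GFP-negative cells. For the last 2 genes the GFP-positive values thus changed sign between replicates. Rad52, an annealing protein, had means of 0.03 in GFP-positive cells (-0.18 and 0.25 within the replicates) and 0.00 in GFP-negative cells. A dimmer Rad52 probe set had -0.36 in GFP-positive cells and 0.24 in GFP-negative cells. Brip1, a helicase partner of Brca1, had signals of 207.7 and 82.1 in GFP-positive cells and 89.0 and 93.5 in GFP-negative cells, against 117.3 and 188.3 in control cells. Both GFP-negative arrays lay below control (-0.56 ± 0.53, limma adjusted p = 0.9998, and 0.5908 with the block, and -0.85 to -0.28 over the arrays left out in turn), while the GFP-positive arrays lay on either side of it. Of the genes below the filter, Bard1 had signals of 26.4 and 10.9 in GFP-positive cells and 60.6 and 12.9 in GFP-negative cells, against 24.4 and 4.9 in control cells. Rad54b had 54.4 and 74.2 in GFP-positive cells and 16.5 and 64.5 in GFP-negative cells, against 65.4 and 43.8 in control cells.

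**Figure D2:**
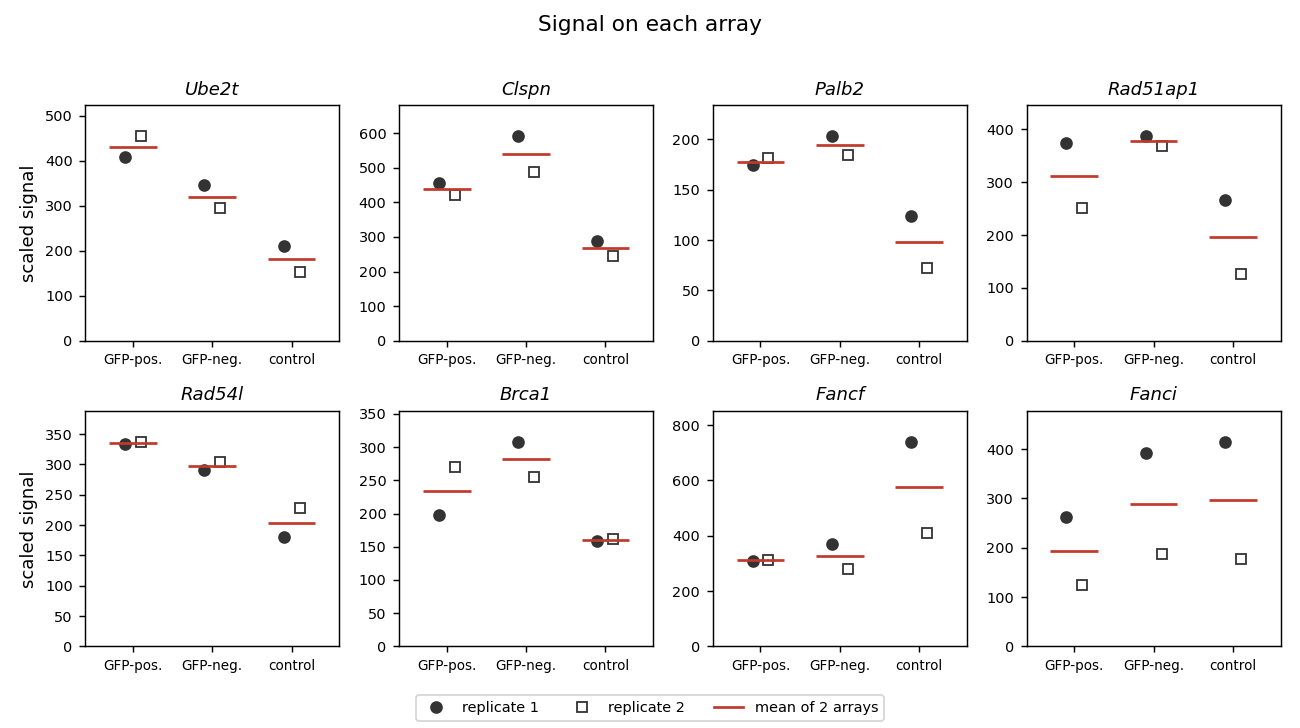
Scaled signal of 8 genes on each array by group, with filled circles for replicate 1, open squares for replicate 2 and a bar for the mean of the 2 arrays. Ube2t, Clspn, Palb2, Rad54l and Brca1 are higher on all 4 treated arrays than on both control arrays, Fancf is lower on all 4, and Fanci differs more between replicate numbers than between groups.

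The Fanconi and ubiquitin genes, all 12 of them tested, had medians close to 0, with 0.06 in GFP-positive cells and 0.01 in GFP-negative cells. Without the block 0 of 12 passed in either comparison (limma; 1 was higher in each at an unadjusted p under 0.05), and with it 1, Ube2t, rose in GFP-positive cells and 0 passed in GFP-negative cells. In GFP-positive cells 5 were higher and 4 lower within both replicate numbers, where 34.6% and 28.5% of all probe sets were. In GFP-negative cells 2 were higher and 2 lower, where 33.8% and 26.8% of all probe sets were. With the block, 3.15% of all probe sets in GFP-positive cells and 1.9% in GFP-negative cells were called higher. Without it 3.6% and 2.76% were higher at an unadjusted p under 0.05 (limma).

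Ube2t, on chromosome 1, encodes the ubiquitin-conjugating enzyme that works with the Fanconi core ligase. Its signal was 407.1 and 454.2 in GFP-positive cells and 345.2 and 295.1 in GFP-negative cells, against 210.5 and 153.6 in control cells. The 3 groups did not overlap, with GFP-positive cells highest and control cells lowest. In GFP-positive cells the difference was 1.13 ± 0.32 (0.86 within replicate 1 and 1.40 within replicate 2), which is 2.19-fold in signal plus offset. Without the block its limma adjusted p was 0.3831, and with the block 0.02341 (SE 0.25). The call ended with the block and no trend (adjusted p = 0.1613). In GFP-negative cells the difference was 0.73 ± 0.32 (0.64 and 0.82), with limma adjusted p of 0.984 and of 0.1658 with the block. The other Ube2t probe set was too dim to be tested and had differences of -0.01 in GFP-positive cells and -0.60 in GFP-negative cells.

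Fancf, an adaptor of the core complex, was the gene furthest below control. It had signals of 310.2 and 313.7 in GFP-positive cells and 369.8 and 281.4 in GFP-negative cells, against 739.7 and 411.7 in control cells. All 4 treated arrays lay below both control arrays, and the control arrays were the most spread. The differences were -0.77 ± 0.35 (-1.18 and -0.36) in GFP-positive cells and -0.72 ± 0.35 (-0.94 and -0.50) in GFP-negative cells, with limma adjusted p of 0.7401 and 0.9998, and of 0.1006 and 0.1634 with the block. Without control replicate 1 the differences were -0.37 in GFP-positive cells and -0.32 in GFP-negative cells, and with control replicate 2 left out in its place they were -1.17 and -1.12. Of the 2 dimmer Fancf probe sets, 1 was above control, by 0.45 in GFP-positive cells and 0.23 in GFP-negative cells.

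Fancd2 and Fanci form the pair of proteins that the core complex ubiquitinates, and in GFP-positive cells their values lay on opposite sides of control. Fancd2 had signals of 232.4 and 244.4 in GFP-positive cells and 314.2 and 139.5 in GFP-negative cells, against 169.4 and 112.2 in control cells. Its difference was 0.67 ± 0.45 in GFP-positive cells and 0.52 ± 0.45 in GFP-negative cells, with limma adjusted p of 0.9305 and 0.9998. All 3 tested Fancd2 probe sets had mean differences above 0 in both comparisons. Fanci had signals of 262.5 and 124.7 in GFP-positive cells and 391.3 and 187.0 in GFP-negative cells, against 414.6 and 177.2 in control cells. The GFP-positive arrays were lower than the other arrays of the same replicate number, by -0.60 and -0.42 against control, although the groups overlapped. Its limma adjusted p in GFP-positive cells was 0.9972, and 0.3059 with the block. That difference was 0.038 with control replicate 1 left out and -1.06 with control replicate 2 left out.

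Fancm, the translocase that anchors the core complex, had signals of 132.7 and 56.4 in GFP-positive cells and 144.8 and 86.3 in GFP-negative cells, against 205.9 and 89.4 in control cells. It was lower within both replicates (-0.53 and -0.46 in GFP-positive cells, -0.43 and -0.04 in GFP-negative cells), but the difference between the array sets was larger than that between the groups. Its mean difference in GFP-positive cells was -0.50, and it was -0.0097 with control replicate 1 left out, -0.045 with GFP-positive replicate 2 left out and -0.99 with control replicate 2 left out. In GFP-negative cells it was -0.23, and 0.25 without control replicate 1. Its limma adjusted p was 0.9972 in GFP-positive cells and 0.9998 in GFP-negative cells. Usp1, which removes the ubiquitin from Fancd2, had signals of 1872.6 and 2084.9 in GFP-positive cells and 1917.5 and 2367.0 in GFP-negative cells, against 1982.8 and 2305.4 in control cells. Its mean differences were -0.11 ± 0.22 in GFP-positive cells and -0.01 ± 0.22 in GFP-negative cells, within the spread of the replicates. Of the core complex genes, Fanca had 0.30 and 0.50 within the replicates in GFP-positive cells and 0.19 and -0.12 in GFP-negative cells. Fancb, on the X chromosome and the only X-linked gene of the 37, had 0.38 and 0.13 in GFP-positive cells and 0.82 and -0.46 in GFP-negative cells. At their brightest probe sets Fancc, Fance, Fancg and Fancl, the ligase subunit of the complex, had mean differences between -0.03 and 0.18 in GFP-positive cells and between -0.16 and 0.08 in GFP-negative cells. A dimmer Fancc probe set had 0.84 in GFP-positive cells (0.83 and 0.86 within the replicates) and 0.23 in GFP-negative cells. Another Fancc probe set had -0.42 and -0.66 in the same order. A dimmer Fance probe set had -0.49 and 0.08, and a dimmer Fancg probe set 0.26 and 0.10.

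The checkpoint kinases, adaptors and break sensors, all 9 of them tested, had medians of 0.28 in GFP-positive cells (0.28 and 0.29 within the replicates) and 0.16 in GFP-negative cells (0.32 and 0.08). Without the block 0 of 9 passed (limma; 1 was higher in each comparison at an unadjusted p under 0.05), and with it 0 passed in GFP-positive cells and 1, Clspn, rose in GFP-negative cells. In GFP-positive cells 5 were higher and 1 was lower within both replicate numbers, where 34.6% and 28.5% of all probe sets were. In GFP-negative cells 4 were higher and 0 lower, where 33.8% and 26.8% of all probe sets were. With the block, 3.15% of all probe sets in GFP-positive cells and 1.9% in GFP-negative cells were called higher. Without it 3.6% and 2.76% were higher at an unadjusted p under 0.05 (limma).

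Clspn, on chromosome 4, encodes claspin, the adaptor through which Atr activates Chek1. Its signal was 454.9 and 422.5 in GFP-positive cells and 591.0 and 487.7 in GFP-negative cells, against 288.1 and 246.1 in control cells. The 3 groups did not overlap, and here GFP-negative cells were highest. In GFP-negative cells the difference was 0.93 ± 0.28 (0.96 and 0.91 within the replicates), which is 1.91-fold in signal plus offset. Its limma adjusted p was 0.6229 without the block and 0.03698 with it (SE 0.21). The call ended with the block and no trend (adjusted p = 0.2074) and with the block after quantile normalization (0.0519). In GFP-positive cells the difference was 0.66 ± 0.28 (0.61 and 0.71), with limma adjusted p of 0.6974 and of 0.1022 with the block. A dimmer Clspn probe set, with signals of 73.2 and 113.8 in GFP-positive cells and 131.6 and 89.5 in GFP-negative cells, against 134.5 and 125.0 in control cells, had the opposite sign, with -0.39 in GFP-positive cells and -0.20 in GFP-negative cells.

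Topbp1, the activator of Atr, had signals of 1360.1 and 1597.1 in GFP-positive cells and 1355.4 and 1573.7 in GFP-negative cells, against 1076.9 and 1067.6 in control cells. The treated groups lay above control without overlap and were alike within each replicate number. The differences were 0.45 ± 0.22 (0.33 and 0.57) in GFP-positive cells and 0.44 ± 0.22 (0.32 and 0.55) in GFP-negative cells, with limma adjusted p of 0.7982 and 0.9998, and of 0.1272 and 0.1873 with the block. Rad50, a subunit of the complex that senses double-strand breaks, had 0.37 and 0.36 within the replicates in GFP-positive cells and 0.63 and 0.09 in GFP-negative cells. Nbn, a further subunit of that complex, had 0.00 and -0.58 in GFP-positive cells and 0.02 and -0.59 in GFP-negative cells, a pattern that rests on control replicate 2, which had a signal of 937.1 where the other arrays had 540.5 to 617.5. At their brightest probe sets the kinases themselves had smaller differences. Atr had 0.28 and 0.29 in GFP-positive cells and 0.26 and -0.19 in GFP-negative cells. Atm, with signals of 367.8 and 322.6 in GFP-positive cells and 597.1 and 309.6 in GFP-negative cells, against 374.8 and 389.0 in control cells, had mean differences of -0.14 ± 0.35 in GFP-positive cells and 0.16 ± 0.35 in GFP-negative cells. Chek1, the effector kinase of Atr, had means of 0.18 in GFP-positive cells and 0.22 in GFP-negative cells, and Chek2, the effector kinase of Atm, had 0.09 and -0.04 in the same order. A dimmer tested Chek1 probe set had 0.57 in GFP-positive cells (0.89 and 0.25 within the replicates) and 0.23 in GFP-negative cells. The dimmer Atm probe set had 0.26 in GFP-positive cells and 0.43 in GFP-negative cells (0.26 and 0.60 within the replicates). A dimmer tested Atr probe set had -0.01 and -0.03. Parp1, which senses strand breaks and makes poly(ADP-ribose), had 0.08 and 0.53 within the replicates in GFP-positive cells and -0.05 and 0.10 in GFP-negative cells.

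In GFP-positive cells all 5 nucleases and helicases had opposite signs within the 2 replicate numbers, with a median of -0.01, and in GFP-negative cells 2 were higher within both, 3 had opposite signs and the median was 0.15. Of the 13223 genes tested, 4576 had opposite signs in GFP-positive cells and 4939 in GFP-negative cells. In GFP-negative cells 33.8% of all probe sets were higher within both. The limma test called 0 of 5 in either comparison, with or without the block, also at an unadjusted p under 0.05. Exo1, a resection nuclease, had 0.75 and -0.05 in GFP-positive cells and 0.45 and -0.14 in GFP-negative cells. Dna2, which resects with Blm, had 0.28 and -0.92 in GFP-positive cells and 0.37 and -0.22 in GFP-negative cells. Blm, the helicase lost in Bloom syndrome in humans, had -0.23 and 0.20 in GFP-positive cells and 0.06 and 0.43 in GFP-negative cells. Mus81 and Eme1 together form a structure-selective nuclease. Mus81 had 0.48 and -0.14 in GFP-positive cells and 0.49 and 0.09 in GFP-negative cells. Eme1 had -0.55 and 0.34 in GFP-positive cells and -1.58 and 0.28 in GFP-negative cells, and GFP-negative replicate 1 had a signal of 38.4 where the other arrays had 111.0 to 176.2.

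The comparison of the sorted fractions asks whether treated cells that switched the silent transgene on differed in these genes from treated cells that did not. In GFP-positive against GFP-negative cells 0 of the 35 genes were called with or without the block, and 0 passed an unadjusted p under 0.05 in either fit (limma). Of all probe sets 0% were called, and 0.625% passed an unadjusted p under 0.05 without the block and 5.75% with it. Of the 35 genes, 10 were higher within both replicate numbers (26.6% of all probe sets were), 10 were lower (27.4% were) and 15 had opposite signs. Beyond 0.5 within both, 0 genes were higher (1.83% of all probe sets were) and 0 lower (2.38% were). At 1 probe set per gene, 3639 of the 13223 genes tested (27.5%) were higher within both and 3612 were lower. Beyond 0.5 these were 196 (1.48%) and 220. The median difference was 0.003, and single genes ran between -0.51 and 0.55. Fanci had the lowest value, with -0.53 within replicate 1 and -0.49 within replicate 2 and a 95% interval of -1.08 to 0.07 in the fit with the block. Ube2t had 0.22 and 0.57 (interval -0.16 to 0.95), and Clspn had -0.36 and -0.19 (interval -0.74 to 0.19). The intervals of the 35 genes had a median half-width of 0.57 (0.31 to 1.04). Ube2t passed with the block in GFP-positive cells alone and Clspn in GFP-negative cells alone, but for neither gene did the direct comparison of the fractions pass.

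**Figure D3:**
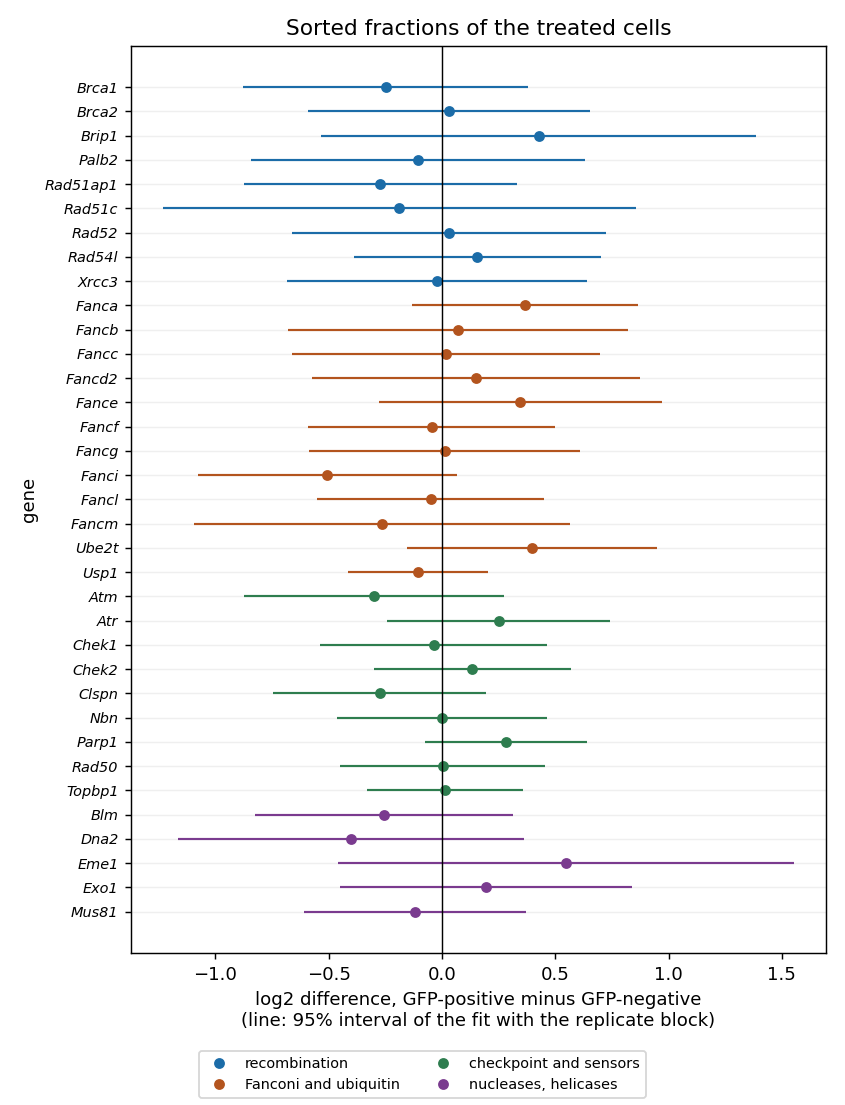
Log2 difference of GFP-positive minus GFP-negative cells for the 35 tested genes, points for the mean difference and lines for the 95% interval of the fit with the replicate block, coloured by role. Every interval includes 0, and the points run between -0.51 (Fanci) and 0.55 (Eme1).

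Other probe sets of the same genes often differed in sign from the brightest. Of the 35 genes, 18 had more than 1 tested probe set. By mean difference in GFP-positive cells, all tested probe sets of 8 of the 18 genes lay on the same side of control. Of these 7 lay above it (Brca1, Chek1, Exo1, Fancd2, Fancg, Mus81 and Parp1) and 1 below it (Fancm). In GFP-negative cells this held for 6 of the 18, all above control (Atm, Brca1, Chek1, Fancb, Fancd2 and Rad52). Brca1 and Fancd2, with 3 tested probe sets each, had mean differences above 0 at every one in both comparisons. Signs within the replicates were mixed at some of them. A dimmer Brca1 probe set had -0.21 and 0.88 in GFP-positive cells and -0.54 and 1.05 in GFP-negative cells. In GFP-negative cells another Brca1 probe set had -0.24 and 0.61, and a dimmer Fancd2 probe set had 0.59 and -0.05. At Rad51ap1, which had 4 tested probe sets, the 3 dimmer ones had -0.08 to 0.50 in GFP-positive cells and -0.41 to 0.46 in GFP-negative cells, below the brightest.

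Among 43 further tested genes of recombination, the Fanconi pathway and the checkpoints, limma called 0 without the block (3 were higher in GFP-positive cells and 1 in GFP-negative cells at an unadjusted p under 0.05). The medians were 0.03 in GFP-positive cells and 0.07 in GFP-negative cells. With the block 2 were higher in GFP-positive cells (Rpa1 and Mre11a) and 1 in GFP-negative cells (Rpa1), and 0 were lower. Of all probe sets 3.15% and 1.9% were called higher in that fit. Without the block 3.6% and 2.76% were higher at an unadjusted p under 0.05 (limma). With the block and no trend 0 of the 43 passed. Rpa1, the large subunit of the protein that coats single-stranded DNA at stalled forks, had signals of 7001 and 8947 in GFP-positive cells and 7405 and 9126 in GFP-negative cells, against 3367 and 5387 in control cells. Its differences were 0.89 ± 0.28 in GFP-positive cells and 0.94 ± 0.28 in GFP-negative cells, with limma adjusted p of 0.4711 and 0.6229, and of 0.002969 and 0.002921 with the block. Mre11a, the nuclease partner of Rad50 and Nbn, had 0.57 and 0.81 within the replicates in GFP-positive cells (limma adjusted p = 0.607, and 0.04544 with the block) and 0.34 and 0.46 in GFP-negative cells (0.9998, and 0.2939 with the block). Rpa2, the middle subunit, had a mean difference of 0.80 in GFP-positive cells and 0.61 in GFP-negative cells, and Wee1, the kinase that restrains entry into mitosis, had 0.02 in GFP-positive cells and 0.61 in GFP-negative cells. Neither passed with or without the block.

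The 19 tested genes of base excision and mismatch repair had a median of 0.02 in GFP-positive cells and 0.00 in GFP-negative cells, and limma called 0 with or without the block (1 was higher in each at an unadjusted p under 0.05 without the block and 2 with it). Msh6, a mismatch recognition protein, had 0.37 and 0.97 within the replicates in GFP-positive cells and 0.61 and 0.87 in GFP-negative cells, with limma adjusted p of 0.6414 and 0.7926, and of 0.08874 and 0.08698 with the block. The 9 genes of end joining had medians of 0.10 in GFP-positive cells and -0.01 in GFP-negative cells, and limma called 0 with or without the block. At an unadjusted p under 0.05 there were 0 without the block and, with it, 1 lower in GFP-negative cells. Of all probe sets, 7.04% in GFP-positive cells and 5.07% in GFP-negative cells passed that threshold without the block (limma). With it 20.3% and 16.2% did.

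**Figure D4:**
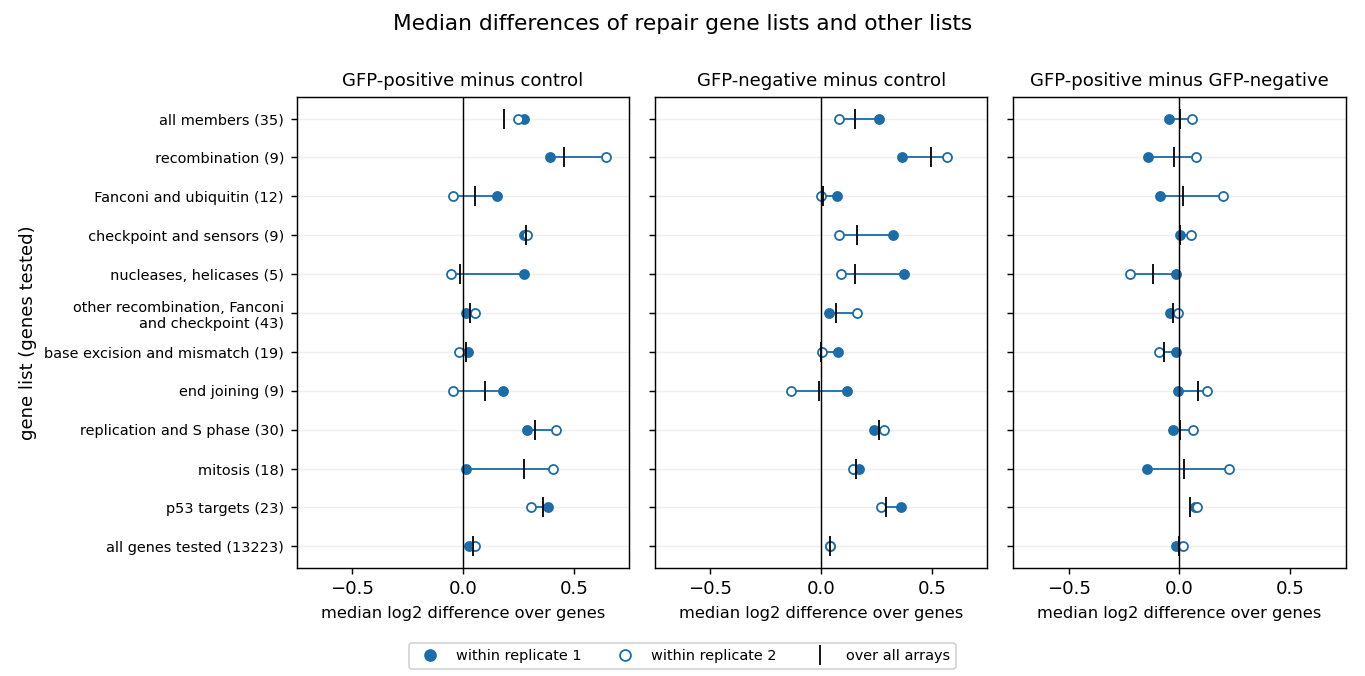
Median log2 difference over the tested genes of each list in the 3 comparisons, with filled points within replicate 1, open points within replicate 2 and ticks for all arrays, and the number of tested genes in brackets. In the comparisons with control the recombination genes have medians of 0.46 and 0.49 and the replication and S phase genes 0.33 and 0.26, while all genes tested lie at 0.04.

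Genes of replication and S phase had higher values beside the repair genes. Over 30 tested genes their median difference was 0.33 in GFP-positive cells (0.29 and 0.42 within the replicates) and 0.26 in GFP-negative cells (0.24 and 0.28). The summed signal of the 31 on the array was 40572 and 50611 in GFP-positive cells and 42767 and 47783 in GFP-negative cells, against 33679 and 35843 in control cells. Without the block limma called 0. At an unadjusted p under 0.05 in that fit 4 were higher in each comparison, where 3.6% and 2.76% of all probe sets were. With the block 4 were higher in GFP-positive cells (Mcm4, Cdt1, Rrm2 and Ccne2), 4 in GFP-negative cells (Cdc6, Rrm2, Ccne1 and Ccne2) and 0 were lower in either, where 6.21% and 3.57% of all probe sets passed. With the block and no trend 0 of the 30 passed in either comparison. Rrm2, the small subunit of ribonucleotide reductase, had signals of 6179.9 and 7901.3 in GFP-positive cells and 6936 and 7629 in GFP-negative cells, against 4025.9 and 3160.3 in control cells, with limma adjusted p of 0.2822 and 0.3865, and of 0.005626 and 0.005565 with the block. The 18 mitosis genes had medians of 0.28 in GFP-positive cells (0.01 and 0.41 within the replicates) and 0.16 in GFP-negative cells. Limma called 0 of them without the block (1 was higher in GFP-positive cells at an unadjusted p under 0.05), and 1, Aurka, was higher with it in GFP-positive cells (0 with the block and no trend). Of all probe sets in that comparison, 3.6% were higher at an unadjusted p under 0.05 without the block. With it 3.15% were called higher. Mki67, the proliferation marker, had mean differences of -0.05 in GFP-positive cells and 0.06 in GFP-negative cells. The part of cell cycle phase in the values of the repair genes was not tested.

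The p53 targets of the damage response, 23 of them tested, had medians of 0.36 in GFP-positive cells and 0.29 in GFP-negative cells. Without the block limma called 0. At an unadjusted p under 0.05 in that fit, 7 were higher in GFP-positive cells and 4 in GFP-negative cells. Of all probe sets 3.6% and 2.76% were higher. With the block 6 passed as higher and 0 as lower in GFP-positive cells, and 3 were higher and 1, Gadd45a, was lower in GFP-negative cells, where 6.21% and 3.57% of all probe sets passed. With the block and no trend 0 of the 23 passed in either comparison. Mdm2, which targets p53 for degradation, had signals of 5543.3 and 7526.2 in GFP-positive cells and 4245.2 and 4959.7 in GFP-negative cells, against 1795.3 and 2371.4 in control cells. Its difference was 1.63 ± 0.25 in GFP-positive cells and 1.14 ± 0.25 in GFP-negative cells, with limma adjusted p of 0.08126 and 0.3565, and of 4.828e-05 and 0.0006827 with the block. Cdkn1a, which encodes the cell cycle inhibitor p21, had 0.65 ± 0.20 in GFP-positive cells and 0.61 ± 0.20 in GFP-negative cells, with limma adjusted p of 0.4435 and 0.7066, and of 0.0101 and 0.02113 with the block. Dnmt1, the maintenance methyltransferase that 5A2dC traps, had mean differences of 0.46 in GFP-positive cells and 0.40 in GFP-negative cells, and neither passed, with limma adjusted p of 0.9663 and 0.9998, and of 0.1542 and 0.2767 with the block.

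The cell type label was checked against markers. All 10 dermal fibroblast markers passed the filter, and limma called 0 without the block (3 were lower in each comparison at an unadjusted p under 0.05). With it 5 were lower in GFP-positive cells and 4 in GFP-negative cells, among them Dcn, a small proteoglycan of the matrix (-3.36 in GFP-positive cells and -2.61 in GFP-negative cells), Lum, another such proteoglycan (-2.92 and -3.25 in the same order), Pdgfra, a growth factor receptor, and Col3a1, a fibrillar collagen. The summed signal of keratinocyte markers was 690 to 806 in GFP-positive cells and 549 to 630 in GFP-negative cells, against 536 to 749 in control cells. That of melanocyte markers was 496 to 761, 494 to 720 and 531 to 674, that of endothelial markers 281 to 490, 335 to 526 and 540 to 615, that of leukocyte markers 1213 to 1236, 1086 to 1342 and 831 to 1187 and that of Schwann cell markers 273 to 535, 195 to 763 and 237 to 651, for GFP-positive, GFP-negative and control cells. Skeletal muscle markers, most of whose signal was Acta1, a muscle actin, had sums of 13056 to 13137 in GFP-positive cells and 13176 to 16657 in GFP-negative cells, against 4372 to 9464 in control cells. With the block 2 of the 4 tested muscle markers, Des, a muscle intermediate filament, and Acta1, were higher in each comparison. The other 2 had opposite signs within the 2 replicate numbers in each comparison. Of the 10 fibroblast markers, 8 were lower within both replicate numbers in each comparison, where 28.5% and 26.8% of all probe sets were. In GFP-positive cells 2 were higher within both, where 34.6% of all probe sets were. With the block and no trend 0 fibroblast and 0 muscle markers passed. Of all probe sets, 3.06% in GFP-positive cells and 1.68% in GFP-negative cells were called lower with the block, and 3.15% and 1.9% higher. Without it 3.43% and 2.31% were lower at an unadjusted p under 0.05 (limma). The part of the fibroblast and muscle markers in the values of the repair genes was not tested.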

How the data were processed

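Total RNA of 6 samples was measured on 1-colour arrays. The deposited values were 1 linear signal intensity per probe set and array, and MAS5 is named in the submitters' processing notes. Version and settings of MAS5 are not given in the sources used. The 2% trimmed mean of these values lay at 500.003 or 500.004 for 4 arrays, but at 50.53 for GFP-positive replicate 2 and 62.02 for GFP-negative replicate 2, and each array was scaled to 500. Of 45101 probe sets 64 controls were left out. Of the other 45037, 34945 had 1 symbol, 932 had several and 9160 were unnamed, by the platform's annotation. The offset of 30.64 is the arrays' 25th percentile (median). Probe sets with a mean signal at or above the 40th percentile (67.71), 27022 in all, were tested.

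Tests used R 4.3.3 and limma 3.58.1 over all 6 arrays (eBayes with a trend, two-sided, 3 residual degrees of freedom, Benjamini-Hochberg over all probe sets, adjusted p under 0.05). Deviations of same-numbered arrays from their group means correlated over probe sets at 0.556, 0.506 and 0.513. With 2 numbers only, and labels that do not say that a number marks a shared culture or day, the numbers were taken as array sets, and values within each and with the replicate number as a block (2 residual degrees of freedom) are given beside the fit without it.

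The genes and lists were chosen with earlier results of these data known. Given in full were genes that passed in any fit and the 5 highest and 5 lowest per comparison with control by the difference nearer to 0 within the replicates, same sign in both; of other lists up to 4 genes of smallest p, and Cdkn1a, Mdm2, Rrm2, Mki67 and Dnmt1; a further gene of this rule is not reported here. Promoter windows came from RefSeq (GRCm38.p6). Alternatives were other scalings, offsets, filters, thresholds and probe set rules, the block, and leaving out arrays. The number of arrays limits the precision.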

Additional observations from a re-analysis of the deposited data

How the results depend on the processing

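Over all alternatives the adjusted p ran between 0.02341 and 1 for Ube2t in GFP-positive cells and between 0.03698 and 1 for Clspn in GFP-negative cells. The fit with the replicate number as a block called 1 gene in GFP-positive cells (Ube2t, limma adjusted p = 0.02341, and 0.02702 after quantile normalization) and 1 in GFP-negative cells (Clspn, 0.03698, but 0.0519 and 0 genes called after quantile normalization), and the same 1 gene each at an adjusted p under 0.1, a threshold chosen after seeing the data. With the block and no trend (adjusted p = 0.1613 for Ube2t and 0.2074 for Clspn), and without each array in turn, 0 were called in any comparison, with smallest adjusted p over the arrays left out of 0.477 in GFP-positive cells. The median difference in GFP-positive cells was 0.14 with median centring, 0.15 with 4 times the offset, 0.22 with the stricter filter, 0.14 with the mean of all probe sets of a gene, 0.16 with probe sets of related transcripts left out and 0.30 without both arrays deposited at a lower scale. It was 0.15 to 0.30 without each array in turn. In GFP-negative cells the median was 0.33 without both of these arrays and 0.023 (without GFP-negative replicate 1) to 0.33 (without GFP-negative replicate 2) without each array. For GFP-positive against GFP-negative cells that range was -0.15 to 0.13. On the deposited values with no rescaling the medians were -1.04, -0.97 and -0.11 for the 3 comparisons, since the 2 arrays keep their lower scale, and all genes had medians of -1.25, -1.17 and -0.10. The count beyond 0.5 within both replicates was 1 in GFP-positive and 1 in GFP-negative cells with 4 times the offset. In GFP-negative cells it was 2 with no rescaling and 2 with the mean of all probe sets. Between the sorted fractions it was 1 (Fanci) with the smaller offset. No such count exists when an array of the pair is left out.

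Of 409 alternative values of the genes given in full, 388 kept direction and side of the threshold, 5 passed it and 16 changed sign. Settings that alter only the test, the filter or the threshold leave the difference itself unchanged, so no change of sign was possible there. No gene passed in the fit without the block, so keeping the side of the threshold meant again not passing. The count of 388 is therefore no measure of how stable the differences are. With no rescaling, in GFP-positive cells Ube2t had -0.20, Clspn -0.65, Rad54l -0.60, Rad51ap1 -0.52 and Palb2 -0.33, and in GFP-negative cells Ube2t -0.41, Clspn -0.32, Rad51ap1 -0.28, Palb2 -0.17 and Brca1 -0.39. With the mean of all probe sets Usp1 had 0.044 and Atm 0.062 in GFP-positive cells. In that setting Clspn fell to 0.14 in GFP-positive cells and 0.37 in GFP-negative cells, and Rad51ap1 to 0.27 and 0.29. Fancf had -0.16 and -0.32 in the same order, Fancm -0.75 and -0.05, and Brca1 0.38 in GFP-negative cells. The values of Ube2t, Rad54l, Palb2, Fanci and Brip1 did not change. Without each array in turn Fanci had -1.06 to 0.038 in GFP-positive cells (0.038 without control replicate 1) and Fancm -0.72 to 0.25 in GFP-negative cells (0.25 without control replicate 1, 0.058 without GFP-negative replicate 2). Fancm had 0.058 without both arrays of lower scale. The cause of the last changes was not tested. Signals near or below the offset, and 2 arrays in each group, limit what could be detected.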
